A study of Rattus norvegicus with 24 samples.

Results

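The vacuolar proton ATPase (V-ATPase) was described here through 10 genes: Atp6v0a1, Atp6v0b and Atp6v0c of the membrane sector, Atp6v1a, Atp6v1b2, Atp6v1c1, Atp6v1d and Atp6v1e1 of the cytosolic sector, and the accessory proteins Atp6ap1 and Atp6ap2. Every probe set whose single gene symbol was one of these was taken, which gave 14 probe sets out of 20832 with a single symbol, and 10 genes out of 14217. Of the 10 genes, 6 had 1 probe set and 4 (Atp6v0b, Atp6v1a, Atp6v1b2 and Atp6ap2) had 2. All 14 probe sets lay above the filter on dim probe sets in both array sets, so every gene was tested.

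The RNA came from the supraoptic nucleus of Sprague Dawley rats, a hypothalamic nucleus of large neurons that make vasopressin and oxytocin, and each Affymetrix array held a pool of 5 rats. The groups compared were females without water for 72 hours but with free access to food (4 arrays used), euhydrated control females (4 arrays), males dehydrated for 3 days (5 arrays) and control males (5 arrays). The males were 10 to 12 weeks old, and no age is given for the females. Female and male arrays differ in sex, RNA extraction, labelling and signal software at once, and these cannot be told apart, so dehydration was tested within each set. Precision is limited by having 4 or 5 arrays per group. By the design text, a group may include technical as well as biological replicates. The p-values therefore measure the spread between arrays, which may not be the spread between separate pools of rats.

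The V-ATPase is a rotary pump that spends ATP to move protons into organelles. Its cytosolic V1 sector binds and splits ATP, and its membrane V0 sector carries the protons through a rotating ring of proteolipid subunits. In secretory neurons the acid interior it makes is needed to process prohormones in dense core granules, to load transmitters into vesicles and to run lysosomal enzymes, and V1 can detach from V0 to switch the pump off.

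Dehydration came with higher signal for the pump across its parts in males: 7 of the 10 genes rose, namely all 3 V0 genes, 3 of 5 V1 genes (Atp6v1a, Atp6v1b2 and Atp6v1c1) and the accessory protein gene Atp6ap2, by 1.16- to 1.44-fold, and none fell. In females 0 of the 10 passed the threshold in either direction, where 3.83% of the genes tested did (limma, adjusted p under 0.05). Without adjustment, 4 of the 10 had p under 0.05 in females. In males, 11.1% of all genes tested rose and 9.98% fell, and the share of members that rose stood above the first. The members were chosen with earlier results of these data known, so this is a description and no test. The median log2 fold change of the 10 genes was 0.25 in females and 0.27 in males, beside −0.03 and −0.02 over all genes tested. It depended on the scaling. Under quantile normalization it was 0.12 in females and 0.18 in males, beside −0.0058 and −0.0048 over all probe sets. With median centring it was 0.29 and 0.34, beside 0.0144 and 0.036. A log2 fold change above 0 was seen for 9 of 10 members in females and 10 of 10 in males, beside 45.4% and 46.5% of all genes tested.

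The 3′ to 5′ ratio of the beta-actin control probe sets, a sign of RNA and labelling length, moved with the male groups. It was 6.83 to 8.998 on dehydrated and 5.23 to 7.12 on control male arrays. The GAPDH ratio overlapped widely, at 2.72 to 3.89 on dehydrated and 2.49 to 3.50 on control male arrays. So did that of hexokinase, at 1.42 to 7.07 and 2.34 to 8.84. The log2 beta-actin ratio was then used as a covariate in the male fit, a choice made after seeing the data. With it, 4 of the 10 genes rose (Atp6v0a1, Atp6v0b, Atp6v1b2 and Atp6v1c1) and all 10 log2 fold changes were above 0, at 0.05 to 0.65. The calls of Atp6v0c (adjusted p = 0.152), Atp6v1a (adjusted p = 0.138) and Atp6ap2 (adjusted p = 0.0748) were lost by limma, in a fit that called 1540 probe sets in all, against 3846 without the covariate.

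The tissue label was checked with Avp and Oxt, the vasopressin and oxytocin genes. Avp signal averaged 5106 ± 1738 on dehydrated and 3913 ± 276.5 on control female arrays (SD, n = 4 each), and 5293 ± 653.3 on dehydrated and 4996 ± 583.2 on control male arrays (SD, n = 5 each). Oxt averaged 4490.0 ± 1506 on dehydrated and 3285 ± 239.1 on control female arrays, and 4639 ± 581.3 on dehydrated and 4588 ± 719.5 on control male arrays. Neither gene passed the test in either set. Of the 8 magnocellular markers they belong to, 2 rose in females (Pdyn and Calb2) and 3 in males (Pdyn, Calb2 and Nefh), and 0 fell in either set; the summed signal of the 8 was 12540 to 20820 on dehydrated and 11050 to 12590 on control female arrays, and 14220 to 16890 on dehydrated and 12730 to 14950 on control male arrays. The fifth dehydrated female array stood apart: its Avp signal was 50.6 and its Oxt signal 26.0, its summed signal of 8 magnocellular markers was 2081, against 11050 to 20820 on the other arrays, and its blood and choroid plexus marker sums were 11140 and 10270, against at most 2431 and 1791 elsewhere. Its Xist signal was also unlike its set. Elsewhere the main Xist probe set read 0.4 to 8.0 in males and 462 to 694 in females. The fifth dehydrated female array read 2.59, within the male range although labelled female. A further Xist probe set read 37.1 there, above the males (2.0 to 15.8) and below the remaining females (186 to 264). The sex of the rats in this pool was not tested. This array was left out, and with it added 0 of the 10 members passed in females, and 1 probe set did in all.

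Signals of other cell types also moved with dehydration, where over all genes tested 2.27% were higher and 1.56% lower in females, and 11.1% higher and 9.98% lower in males. Of 9 mural cell and meningeal markers, 2 were lower and 0 higher in dehydrated females (summed signal 1282 to 1634, against 1708 to 2658 in control females), and 7 were lower and 1 higher in dehydrated males (1347 to 2939, against 2394 to 5223 in control males). Of 7 oligodendrocyte markers, 3 were lower in dehydrated females (summed signal 3075 to 5372, against 5549 to 7918 in control females) and 0 changed in males (5965 to 10210 in dehydrated and 6609 to 8479 in control males). Microglial markers were lower in 0 of 7 tested in females (summed signal 640.4 to 824.6 in dehydrated and 810.4 to 1065 in control females) and in 3 of 6 in males (707.6 to 924.7 in dehydrated and 809.2 to 1250 in control males). Both blood markers tested were lower in dehydrated males (summed signal 751.2 to 1070, against 1576 to 2154 in control males), and 1 of 2 was lower in dehydrated females (731.9 to 1672, against 1267 to 2431 in control females). Of 8 astrocyte markers, 1 was lower in dehydrated females (Gjb6; summed signal 9980 to 12940 in dehydrated and 11160 to 12730 in control females) and 2 in dehydrated males (Aldh1l1 and Gjb6; 10910 to 13500 in dehydrated and 12790 to 13670 in control males). Of 4 ependymal and choroid plexus markers tested, 0 changed in females (summed signal 506.8 to 1791 in dehydrated and 338.3 to 1230 in control females) and 2 were lower in males (Ttr and Foxj1; 315.2 to 450.0 in dehydrated and 449.7 to 731.9 in control males). None of 7 endothelial markers passed in either set. No marker on these lists read under a signal of 10 on all 18 arrays used. The part of these cell types in the V-ATPase values was not tested, and in such pooled tissue fewer cells of a type and less RNA per cell cannot be told apart.

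RefSeq holds a promoter window of 300 bases for 8 of the 10 genes (build GRCr8); Atp6v1b2 and Atp6v1c1 have none in the table used. Those of Atp6v0a1, Atp6v0c and Atp6v1a are shown because these genes stand for the stator, the proton ring and the catalytic head of the pump and moved together in males. They lie at chr10:86435891-86436190 (plus strand), chr10:13705793-13706092 (minus strand) and chr11:70067252-70067551 (plus strand), are printed 5′ to 3′ along the gene, and have in capitals the letters of a GC box (GGGCGG), a cAMP response element core (TGACG) or a TATA box (TATAAA) on either strand.
Atp6v0a1: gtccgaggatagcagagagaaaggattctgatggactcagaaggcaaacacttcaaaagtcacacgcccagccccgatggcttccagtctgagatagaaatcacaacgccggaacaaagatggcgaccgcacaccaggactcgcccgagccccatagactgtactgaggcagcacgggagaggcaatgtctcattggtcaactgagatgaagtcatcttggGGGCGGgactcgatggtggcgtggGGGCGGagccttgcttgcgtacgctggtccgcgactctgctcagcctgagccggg
Atp6v0c: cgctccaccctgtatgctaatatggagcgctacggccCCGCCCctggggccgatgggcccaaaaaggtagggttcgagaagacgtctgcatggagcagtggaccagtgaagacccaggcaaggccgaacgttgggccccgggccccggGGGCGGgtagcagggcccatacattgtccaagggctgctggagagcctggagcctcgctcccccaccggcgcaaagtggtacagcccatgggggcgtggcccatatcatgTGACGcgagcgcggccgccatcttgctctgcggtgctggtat
Atp6v1a: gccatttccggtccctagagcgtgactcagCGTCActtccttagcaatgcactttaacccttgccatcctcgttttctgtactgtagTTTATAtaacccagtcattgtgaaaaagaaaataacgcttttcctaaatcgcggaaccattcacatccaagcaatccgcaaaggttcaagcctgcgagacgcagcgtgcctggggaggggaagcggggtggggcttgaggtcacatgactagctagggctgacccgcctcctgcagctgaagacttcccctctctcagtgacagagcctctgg

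Counting from 1 at the 5′ end of the window, Atp6v0a1 held GC boxes at positions 222 and 246, Atp6v0c held GC boxes at 38 and 149 and the TGACG core at 259, and Atp6v1a held the core at 31 and the TATA letters at 88. GGGCGG was in the windows of 6 of the 8 members, all but Atp6v0b and Atp6v1a, against 33.1% of all 33469 promoter windows and 60.1% of those of 10795 genes tested. TGACG was in 5 of 8 (Atp6v0c, Atp6v1a, Atp6v1d, Atp6ap1 and Atp6ap2), against 21.2% of all windows and 30.3% of those of tested genes. TATAAA was in 2 of 8 (Atp6v1a and Atp6v1e1), against 14.2% and 7.02%. The E boxes CACGTG and GTCACGTG, letters that the lysosomal regulator TFEB is known to bind, were in 0 of the 8 windows, against 6.42% and 1.85% of all windows and 9.11% and 3.54% of those of tested genes. The full cAMP response element TGACGTCA (1.83% of all windows and 2.95% of those of tested genes) and TGATGNAA (3.98% and 2.13%) were also in 0 of 8. The longer E box and the longer cAMP element contain the shorter ones, so these matches overlap. Among 13 other V-ATPase subunits with a window, Atp6v0d1 and Atp6v0e1 held GTCACGTG. A match is a run of letters and not a shown binding site.

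In the V0 sector, all 3 genes rose in males by 1.16- to 1.44-fold, and in females none of the 3 passed the threshold. Atp6v0a1 encodes the a1 isoform of subunit a, the fixed part of V0 through which protons pass. Its signals were 184, 164, 201 and 243 on dehydrated female arrays, against 147, 211, 117 and 137 on control female arrays. The female groups overlapped through 1 control array that read above all but 1 of the dehydrated arrays. In males it read 408.8, 412.1, 353.9, 436.6 and 382.5 on dehydrated arrays, against 289.0, 232.1, 335.8, 268.9 and 251.6 on control arrays, with no overlap. On the log2 scale dehydrated over control came to 0.38 ± 0.17 (SE) in females (limma, adjusted p = 0.271) and 0.53 ± 0.09 in males (limma, adjusted p = 0.00118), which in males was the largest of the 10.

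Atp6v0b and Atp6v0c encode the c″ and c proteolipids of the rotating ring. Atp6v0b signals were 889, 1033, 684 and 1131 on dehydrated female arrays, against 779, 740.1, 721 and 709 on control female arrays. A single dehydrated female array, the third, read below the controls, and the other 3 lay above them. In males Atp6v0b read 1211, 1171, 1196, 1193 and 1202 on dehydrated arrays, against 910.5, 1026, 905.8, 877.0 and 931.5 on control arrays. The male groups were apart, and the dehydrated arrays were close to each other. Log2 fold changes were 0.32 ± 0.14 in females (limma, adjusted p = 0.262) and 0.36 ± 0.05 in males (limma, adjusted p = 0.000191). Without the third dehydrated female array the female value was 0.46 with an adjusted p of 0.0453 (limma), the only female call among the 10 genes when each of the 8 arrays was left out in turn.

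Atp6v0c signals were 1916, 2653, 1793 and 1862 on dehydrated female arrays, against 1729, 1358, 1790.3 and 1674 on control female arrays. The female groups were apart, but by little: the lowest dehydrated array read 1793 and the highest control array 1790.3. In males they were 2395.5, 2290.5, 2209, 2410.1 and 2474 on dehydrated arrays, against 2156, 2074, 1898, 1977 and 2089 on control arrays, again with no overlap. The log2 fold change was 0.32 ± 0.15 in females (limma, adjusted p = 0.270) and 0.21 ± 0.05 in males (limma, adjusted p = 0.00770), the smallest of the male rises. That call was lost in a fit without the mean-variance trend (adjusted p = 0.0585) and in a single limma fit of all 4 groups (adjusted p = 0.185).

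**Figure D1:**
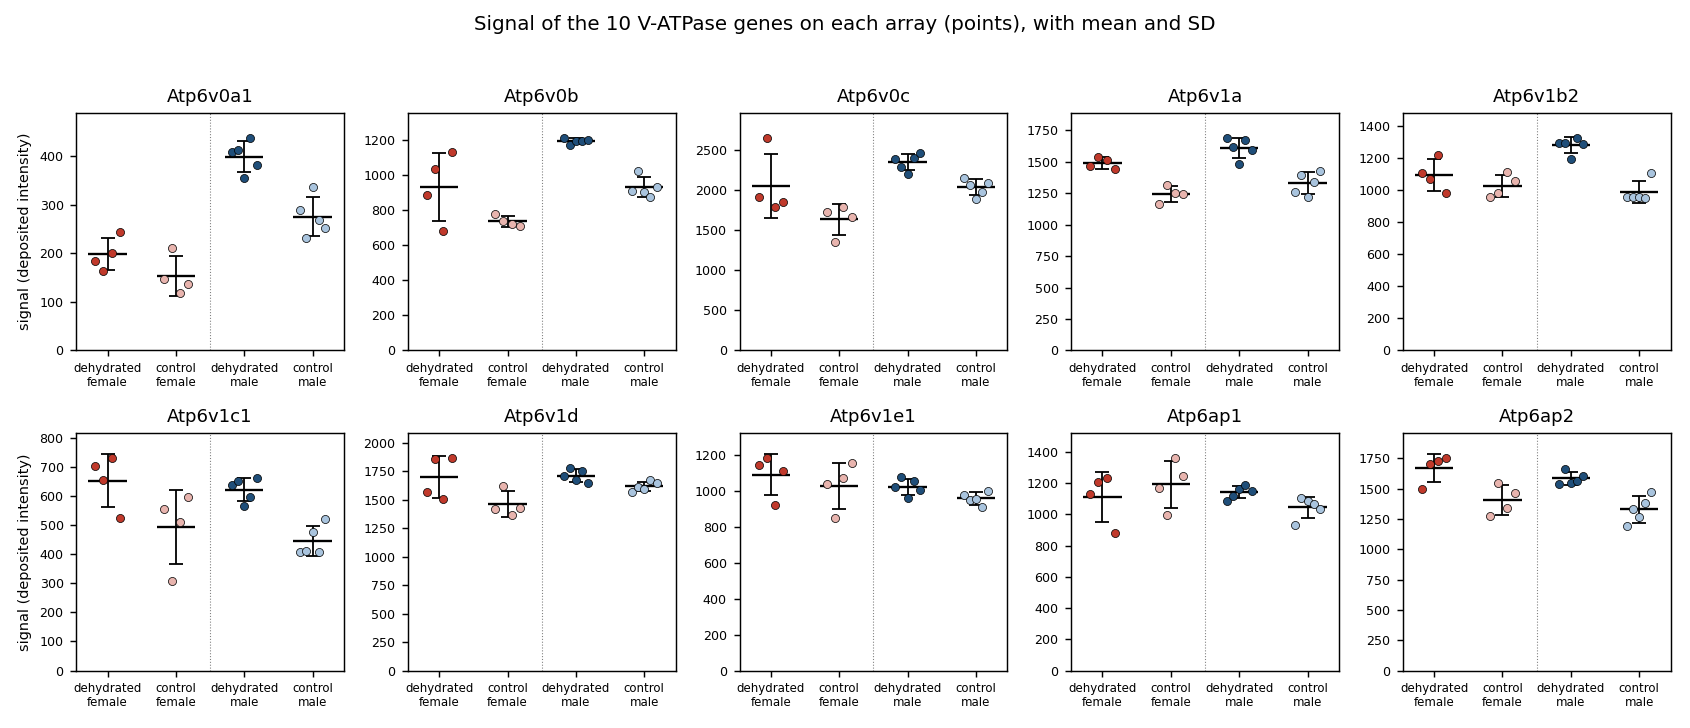
Deposited signal (intensity, y axis from 0) of the main probe set of each of the 10 genes on every array, with the group mean and SD; dehydrated females, control females, dehydrated males and control males run left to right. In 7 panels (Atp6v0a1, Atp6v0b, Atp6v0c, Atp6v1a, Atp6v1b2, Atp6v1c1 and Atp6ap2) all 5 dehydrated male points lie above all 5 control male points, and in 2 panels (Atp6v0c and Atp6v1a) the same holds for the 4 and 4 female points.

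In the V1 sector, 3 of 5 genes rose in males, the 2 genes of the ATP-binding head among them, and none of the 5 passed in females. Atp6v1a encodes the catalytic subunit A, where ATP is split. Its signals were 1464, 1538, 1517 and 1442 on dehydrated female arrays, against 1164, 1317, 1252 and 1243 on control female arrays. In males they were 1686, 1619.7, 1485, 1672 and 1593.5 on dehydrated arrays, against 1262, 1396, 1222, 1335 and 1427 on control arrays. Atp6v1a was apart in both sets, and its log2 fold changes were close, at 0.26 ± 0.10 in females (limma, adjusted p = 0.171) and 0.28 ± 0.05 in males (limma, adjusted p = 0.00301). The female value had the smallest p of the 10, and in a single limma fit of all 4 groups, which shares the spread of both sets, its adjusted p was 0.0257.

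Atp6v1b2 encodes the brain isoform of subunit B, which alternates with A in the head. Its signals were 1106, 1073, 1222 and 984 on dehydrated female arrays, against 962, 986, 1113 and 1057 on control female arrays. The female groups overlapped, with 1 dehydrated array above all controls. In males they were 1299, 1298, 1198, 1326 and 1290.5 on dehydrated arrays, against 957.1, 961.7, 958.3, 952.6 and 1109.8 on control arrays, with no overlap. Its log2 fold change came to 0.09 ± 0.11 in females (limma, adjusted p = 0.703) and 0.38 ± 0.05 in males (limma, adjusted p = 0.000278). Atp6v1b2 was thus the member whose effects in the sets lay farthest apart, yet the difference, female minus male, of −0.29 ± 0.11 did not pass over all probe sets (limma, adjusted p = 0.350).

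Atp6v1c1 encodes subunit C, which ties the stator of V1 to V0 and in yeast comes off when the sectors part. Its signals were 702, 654, 728 and 522 on dehydrated female arrays, against 555, 308, 512 and 595 on control female arrays. The fourth dehydrated array overlapped with the controls, and the second control array was far below the rest. In males they were 635.9, 649.8, 563.7, 596.3 and 659.7 on dehydrated arrays, against 408.6, 410.1, 476.5, 405.6 and 520.2 on control arrays, with no overlap. The log2 fold change was 0.43 ± 0.19 in females (limma, adjusted p = 0.244) and 0.48 ± 0.08 in males (limma, adjusted p = 0.000672). Those 2 female arrays had the highest 3′ to 5′ ratios of the beta-actin control probe sets in the set, at 5.30 on the fourth dehydrated array and 13.3 on the second control array, against 2.44 to 3.65 on the other female arrays used. The log2 value of Atp6v1c1 had a Pearson r of −0.92 with the log2 of this ratio over 8 female arrays, and of 0.47 over 10 male arrays. With each female array left out in turn, its female log2 fold change ran from 0.22 to 0.54. The part of RNA length in these values was not tested.

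Atp6v1d, a part of the central rotor, and Atp6v1e1, a part of the outer stalk, did not pass in either set. Atp6v1d averaged 1698 ± 186 on dehydrated and 1460 ± 112 on control female arrays, and 1711 ± 56.8 on dehydrated and 1616 ± 42.9 on control male arrays. Its log2 fold change was 0.21 ± 0.12 in females (limma, adjusted p = 0.344) and 0.08 ± 0.04 in males (limma, adjusted p = 0.201), with overlapping groups in both. Atp6v1e1 had a log2 fold change of 0.09 in both sets, with an SE of 0.13 in females (limma, adjusted p = 0.757) and of 0.05 in males (limma, adjusted p = 0.204). The 95% interval of its fold ran from 0.878 to 1.28 in females and from 0.993 to 1.15 in males, so these arrays do not show that it stayed level. With arrays centred on their median, all 10 members passed in males, Atp6v1d (adjusted p = 0.0328) and Atp6v1e1 (adjusted p = 0.0369) among them by limma.

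**Figure D2:**
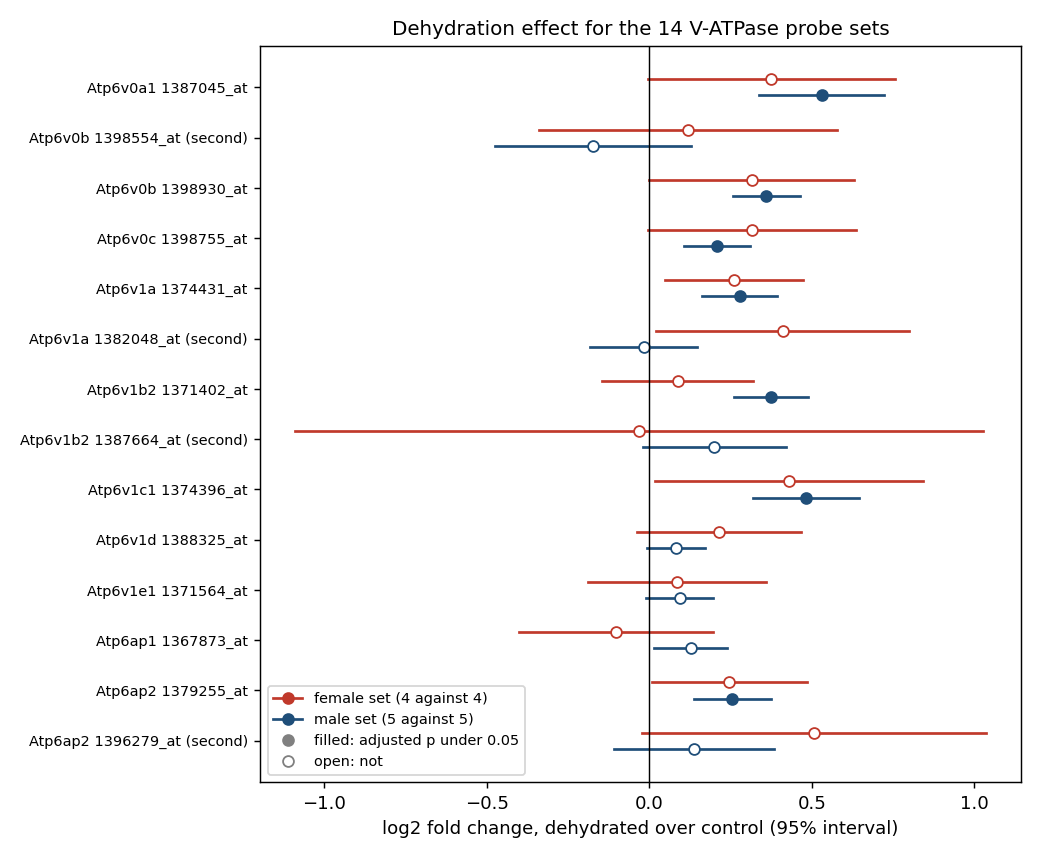
Log2 fold change, dehydrated over control, with its 95% interval for all 14 probe sets, in the female set (red, 4 against 4 arrays) and the male set (blue, 5 against 5); filled points have an adjusted p under 0.05. The 7 filled points are all male and all belong to the main probe sets, and the second probe set of Atp6v1b2 has the widest female interval, from −1.09 to 1.03.

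Of the accessory genes, Atp6ap2 rose in males and Atp6ap1 did not pass; the difference between the genes was not tested. Atp6ap2, the prorenin receptor, whose product binds V0 and is needed to assemble the pump, read 1499, 1699, 1725 and 1749.6 on dehydrated female arrays, against 1277, 1551, 1340.5 and 1462 on control female arrays. In males it read 1541, 1660.3, 1546, 1566 and 1608.5 on dehydrated arrays, against 1189.9, 1333, 1265, 1380.3 and 1476 on control arrays. The female groups overlapped by 1 array on either side and the male groups did not. This gave log2 fold changes of 0.25 ± 0.11 in females (limma, adjusted p = 0.250) and 0.26 ± 0.06 in males (limma, adjusted p = 0.00606); under quantile normalization the male adjusted p was 0.0502.

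Atp6ap1, whose product Ac45 guides the pump to secretory granules in endocrine cells, did not pass in either set. It read 1127, 1207, 1233 and 880.1 on dehydrated female arrays, against 1167, 996, 1357 and 1244 on control female arrays, with wide overlap. In males it read 1087, 1118, 1164, 1184 and 1147.5 on dehydrated arrays, against 932.7, 1107, 1083, 1064 and 1036 on control arrays. There 4 of 5 dehydrated arrays lay above every control array. The log2 fold change was −0.10 ± 0.14 in females (limma, adjusted p = 0.735) and 0.13 ± 0.05 in males (limma, adjusted p = 0.112), which made it the single member with a female value below 0. Without the fourth dehydrated female array, the female value was 0.0057. Its log2 value had a Pearson r of −0.62 with the log2 beta-actin ratio over 8 female arrays, and of 0.43 over 10 male arrays. For Atp6v1e1 and Atp6v0c the female r was −0.61 and −0.59. The part of RNA length in these values was not tested.

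Over the 10 genes, 2 (Atp6v0c and Atp6v1a) had all dehydrated female signals above all control female signals, where 6.18% of the genes tested did, and 7 had all dehydrated male signals above all control male signals, where 9.11% did. The 7 were those that passed the test. Leaving out each male array in turn kept the count at 7 in 10 of 10 fits, whereas averaging all probe sets of a gene left 4 of 10 (Atp6v0a1, Atp6v0c, Atp6v1b2 and Atp6v1c1).

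The difference between the dehydration effects, female minus male, passed for 0 of the 10, where 0.026% of the genes tested did, 7 of 21729 probe sets passed in all and 2177 probe sets had an unadjusted p under 0.05. It ran from −0.29 (Atp6v1b2) to 0.13 (Atp6v1d) on the log2 scale, with a median of −0.03. Atp6v1b2 was the 1 member with an unadjusted p under 0.05. The median SE of a difference over all probe sets was 0.21. For Atp6v1a, the 95% interval of the difference ran from −0.22 to 0.19, and for Atp6v0a1 from −0.56 to 0.25.

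In the mean of the 2 effects, fitted with a single estimate of the spread, the same 7 genes were higher, where 12.1% of the genes tested were higher and 14.7% lower. Their log2 values ran from 0.23 ± 0.05 for Atp6v1b2 (limma, adjusted p = 0.00375) to 0.46 ± 0.10 for Atp6v1c1 (limma, adjusted p = 0.00265). Atp6v1d, at 0.15 ± 0.05, missed the threshold with an adjusted p of 0.0544 (limma). The count of 7 depended on the samples and the scaling: it was 3 under quantile normalization (Atp6v0a1, Atp6v0b and Atp6v1c1) and 0 with the fifth dehydrated female array added. Since the male and the female values that enter the mean are those given above, it adds no separate support.

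**Figure D3:**
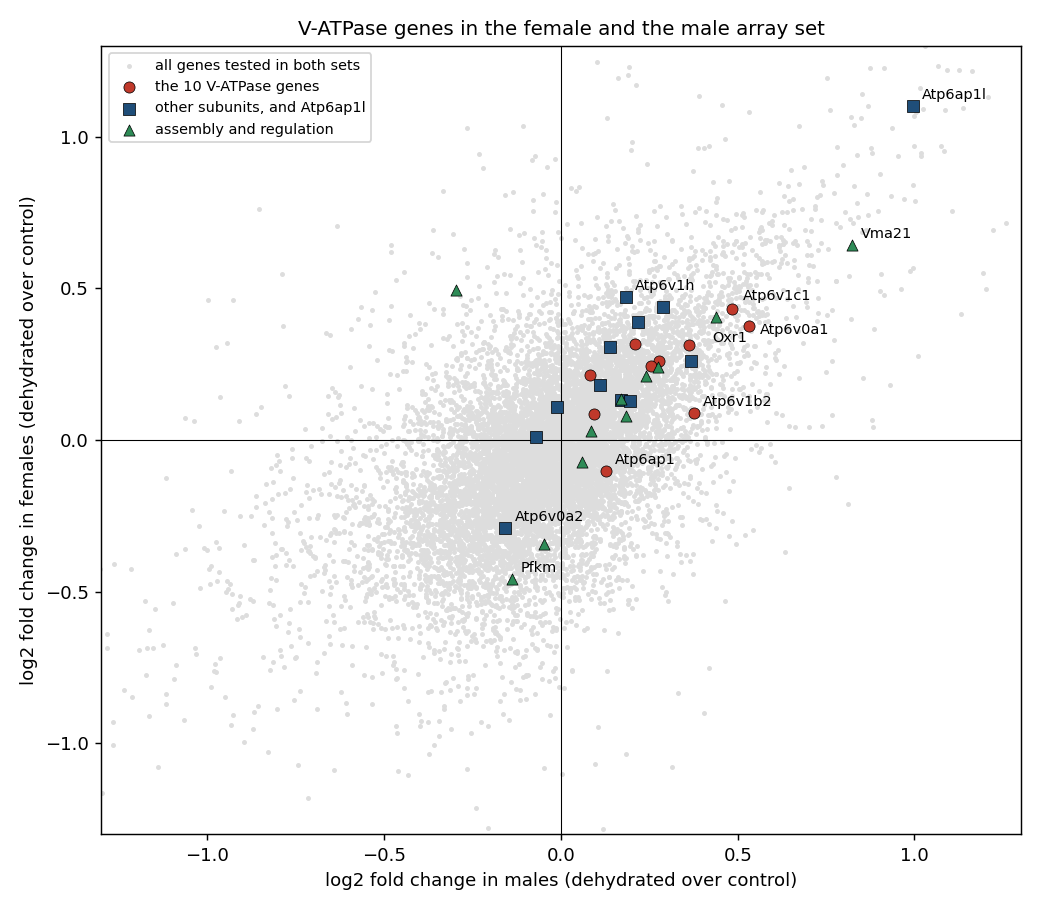
Log2 fold change of dehydration in males (x axis) and in females (y axis) for all genes tested in both sets (grey), the 10 V-ATPase genes (red circles), other subunits with Atp6ap1l (blue squares) and assembly and regulation genes (green triangles); genes beyond the axes are not drawn. Of the 10 genes, 9 lie above 0 on both axes, and Atp6ap1 lies just under the horizontal line at −0.10 in females.

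The second probe sets of 4 genes gave another picture, and none of the 4 passed in either set. For Atp6v1a the second probe set had a log2 fold change of 0.41 ± 0.18 in females (limma, adjusted p = 0.239) and of −0.02 ± 0.08 in males (limma, adjusted p = 0.908). For Atp6ap2 it was 0.51 ± 0.24 in females (limma, adjusted p = 0.283) and 0.14 ± 0.12 in males (limma, adjusted p = 0.452). The second probe set of Atp6v0b was dim, at 38.2 to 85.8 over the 18 arrays, and had −0.17 ± 0.14 in males (limma, adjusted p = 0.440).

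For Atp6v1b2 the second probe set read 428, 387, 415 and 132 on dehydrated female arrays, against 439, 98.3, 464 and 489 on control female arrays. The 2 low values are on the fourth dehydrated and the second control array, those with the high beta-actin ratios. On male arrays, whose beta-actin ratios were 6.83 to 8.998 in dehydrated and 5.23 to 7.12 in control males, it read 111.6 to 155.9 in dehydrated and 97.3 to 123.7 in control males. The second probe set of Atp6ap2 read 620.3, 601, 642 and 401 on dehydrated female arrays, against 433, 221, 439.7 and 547 on control female arrays, and was lowest on the same array of each female group. The part of RNA length in these values was not tested. Without those 2 arrays, a choice made after seeing the data, 0 of the 10 members passed in females and 8 of 10 in the mean effect, with Atp6v1d added.

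**Figure D4:**
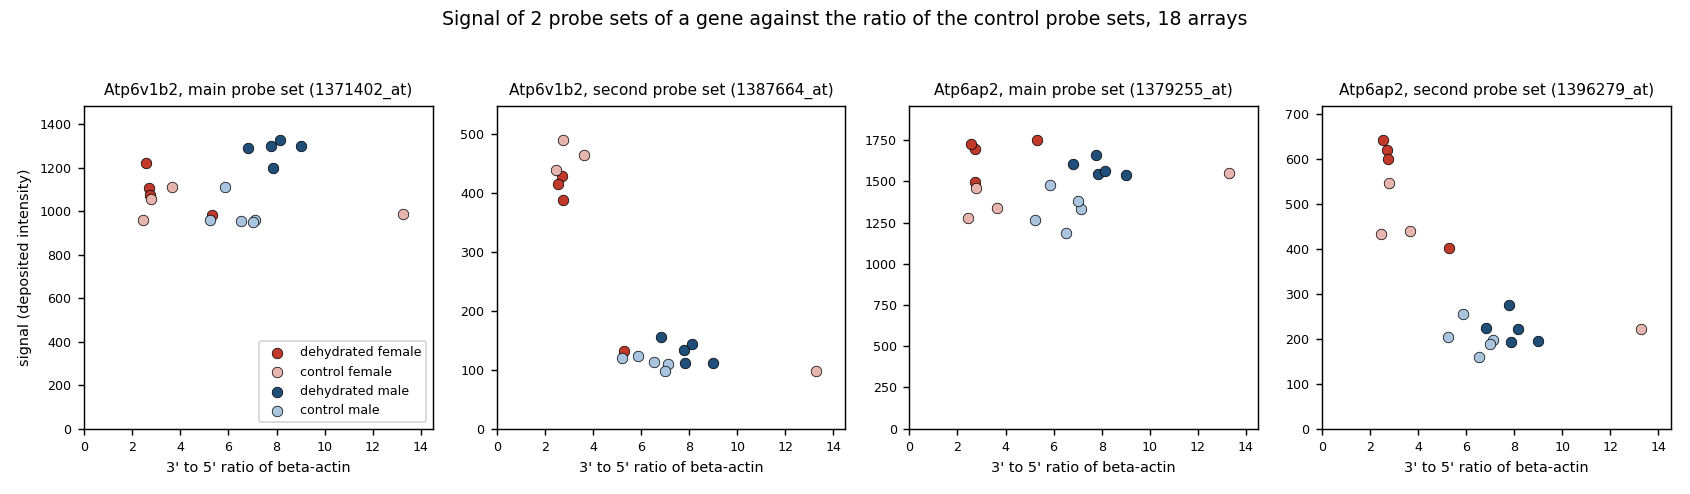
Deposited signal (y axis) of the main and the second probe set of Atp6v1b2 and Atp6ap2 against the 3′ to 5′ ratio of beta-actin (x axis) on the 18 arrays used, by group. On every array with a ratio above 5, the female arrays with ratios of 5.30 and 13.3 included, the second probe sets read lower than on every array with a smaller ratio, and the main probe sets do not.

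The rest of the pump was read from a list of the other subunits. Of 16 other subunit genes, 14 had a probe set and 11 were tested in each set. In females 1 was higher and 0 lower, where 2.27% of all genes were higher. In males 4 were higher (Atp6v0d1, Atp6v0e2, Atp6v1f and Atp6v1h) and 0 lower, where 11.1% of all genes were higher. With the 10 genes, 1 of 21 pump genes rose in females, near the share over all genes, and 11 of 21 in males.

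Atp6v1h, a subunit that in yeast holds back ATP use when V1 is free, was the one that passed in both sets. It read 712, 724, 709.7 and 656 on dehydrated female arrays, against 525, 458, 484 and 549 on control female arrays. In males it read 469.3, 542.0, 463.8, 504.9 and 476.7 on dehydrated arrays, against 406.0, 413.8, 433.9, 450.7 and 454.2 on control arrays. The groups were apart in both sets, with a wider gap in females: the log2 fold change was 0.47 ± 0.10 in females (limma, adjusted p = 0.0290) and 0.18 ± 0.06 in males (limma, adjusted p = 0.0482). Both calls rested on single arrays: the female one was lost without dehydrated array 1 or 2 or control array 1 or 3 (adjusted p = 0.0678 to 0.103), and the male one was kept in 2 of 10 fits, those without dehydrated array 3 or control array 5. Processing ended both calls as well: the female one under quantile normalization (adjusted p = 0.0689) and without the trend (adjusted p = 0.0750), and the male one under quantile normalization, with no filter, without the trend, in the single fit of all 4 groups and with the actin covariate (adjusted p = 0.0564 to 0.193, limma). The difference between the sets, 0.29 ± 0.10, did not pass (limma, adjusted p = 0.33).

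Atp6v0e2, a small V0 subunit, averaged 1193 ± 90.2 on dehydrated and 921.5 ± 25.4 on control male arrays (SD, n = 5 each), and rose by 0.37 ± 0.06 on the log2 scale (limma, adjusted p = 0.000426). Atp6v1f, a rotor subunit, averaged 1721 ± 52.4 on dehydrated and 1409 ± 61.4 on control male arrays and rose by 0.29 ± 0.04 (limma, adjusted p = 0.000594). Atp6v0d1, which couples V0 to the rotor, rose by 0.17 ± 0.05 (limma, adjusted p = 0.0231). Atp6v0e2 and Atp6v1f kept their calls without any 1 male array, but Atp6v1f lost its call in the single fit of all 4 groups (adjusted p = 0.174) and with the actin covariate (adjusted p = 0.0543). Atp6v0d1 lost its call without control array 4 (adjusted p = 0.0563), under quantile normalization (adjusted p = 0.277), without the trend (adjusted p = 0.104), in the single fit (adjusted p = 0.263) and with the covariate (adjusted p = 0.153). In the mean effect 4 of the other subunits were higher (Atp6v0e2, Atp6v1f, Atp6v1g2 and Atp6v1h) and 1 lower. The lower one was Atp6v0a2, another isoform of subunit a, at −0.22 ± 0.07 (limma, adjusted p = 0.0357), a call kept in 10 of the 18 fits that left out an array and ended by quantile normalization, median centring, no filter and averaged probe sets (adjusted p = 0.0525 to 0.134, limma).

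Atp6ap1l, a gene named for its likeness to Atp6ap1 and in none of the lists, was picked out after its values were seen. It read 457, 436, 366 and 566 on dehydrated female arrays, against 177, 237, 198 and 219.5 on control female arrays. In males it read 302.1, 288.0, 269.9, 266.5 and 306.7 on dehydrated arrays, against 95.3, 149.2, 168.5, 145.8 and 154.9 on control arrays. Both sets were apart, with log2 fold changes of 1.10 ± 0.14 in females (limma, adjusted p = 0.00237) and 1.00 ± 0.12 in males (limma, adjusted p = 6.47e-05), and the calls held without any 1 array in either set. With the fifth dehydrated female array added, the female value was 0.12 (adjusted p = 0.983).

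**Figure D5:**
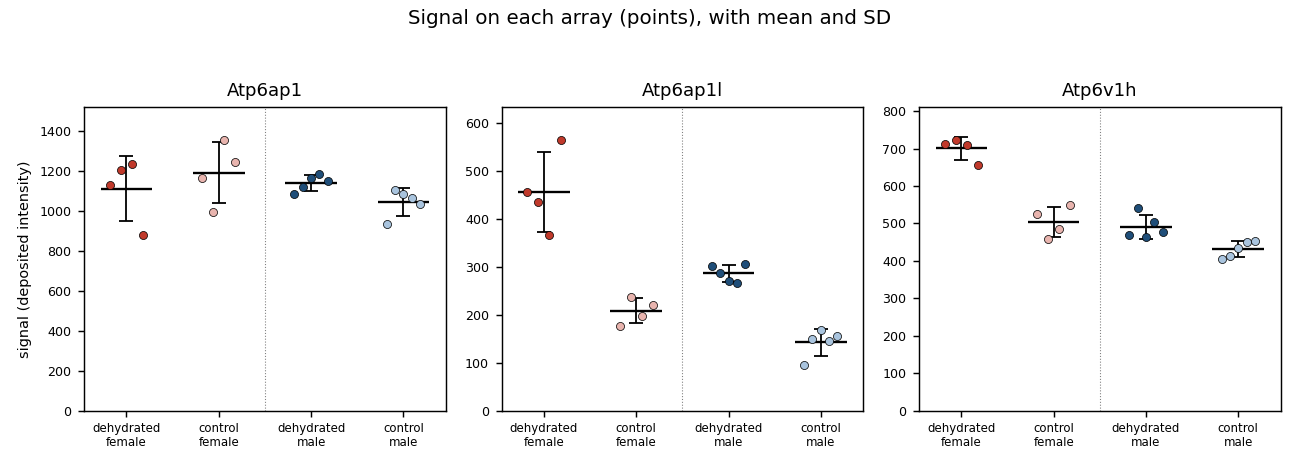
Deposited signal (intensity, y axis from 0) of Atp6ap1, Atp6ap1l and Atp6v1h on every array, with the group mean and SD, in dehydrated females, control females, dehydrated males and control males. Dehydrated arrays lie above control arrays in both sets for Atp6ap1l and Atp6v1h, and overlap with them for Atp6ap1.

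Among 12 genes for the assembly and control of the pump, 11 were tested; 2 rose and 1 fell in females, and 5 rose and 0 fell in males. Over all genes tested 2.27% rose and 1.56% fell in females, and 11.1% rose and 9.98% fell in males. Vma21, a chaperone that builds V0 in the endoplasmic reticulum, averaged 246.4 ± 45.3 on dehydrated and 154.3 ± 16.8 on control female arrays (SD, n = 4 each), and 203.7 ± 22.3 on dehydrated and 113.2 ± 21.1 on control male arrays (SD, n = 5 each). Its log2 fold change was 0.64 ± 0.14 in females (limma, adjusted p = 0.0338) and 0.82 ± 0.12 in males (limma, adjusted p = 0.000250), larger than that of any of the 10 genes in the same set. Oxr1, whose TLDc domain belongs to a family that binds the pump, rose by 0.41 ± 0.09 in females (limma, adjusted p = 0.0438) and by 0.44 ± 0.05 in males (limma, adjusted p = 6.32e-05). Pfkm, a glycolytic enzyme known to bind the pump, had −0.46 ± 0.11 in females (limma, adjusted p = 0.0461). The female calls were fragile: Vma21 lost its call without dehydrated array 1 or 4 or control array 1, 3 or 4 (adjusted p up to 0.109), and Oxr1 and Pfkm kept theirs in 1 of 8 fits, the one without control array 2. All 3 were also lost with median centring and without the trend (adjusted p = 0.0535 to 0.0985, limma). With probe sets averaged per gene, Pfkm had −0.30 (limma, adjusted p = 0.550). Oxr1 and Pfkm were lost with no filter as well (limma, adjusted p = 0.0537 and 0.0596), and Oxr1 under quantile normalization (limma, adjusted p = 0.0995).

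In males Tmem199, a factor of pump assembly, rose by 0.27 ± 0.07 (limma, adjusted p = 0.0195), and Aldoa, a glycolytic enzyme that binds the pump, by 0.17 ± 0.05 (limma, adjusted p = 0.0218). The fifth to rise was Ncoa7, which has a TLDc domain as well. Tmem199 lost its call without dehydrated array 2 or control array 2 (adjusted p = 0.0511 and 0.0519), and Aldoa without dehydrated array 1 or control array 3 or 4 (adjusted p = 0.0521 to 0.0562). Both were lost without the trend and with the actin covariate (adjusted p = 0.0578 to 0.313, limma).

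Among genes that use the proton gradient, the calls were too few to tell from the shares over all genes. Those shares were 2.27% higher and 1.56% lower in females, and 11.1% higher and 9.98% lower in males. Of the chloride and sodium exchangers of granules and endosomes, 0 of 6 passed in females and 0 of 5 in males. Clcn7, a lysosomal chloride exchanger, had the smallest female p at −0.78 ± 0.25 (limma, adjusted p = 0.115). Its signal was dim, at 17.6 ± 5.91 on dehydrated and 34.65 ± 8.28 on control female arrays (SD). Clcn6, an endosomal exchanger, had the smallest male p at 0.16 ± 0.05 (limma, adjusted p = 0.0559). Of the vesicular transporters, 1 of 6 was lower in females and 1 of 5 higher in males. The first was Slc18a3, the acetylcholine transporter, at a dim 22.0 ± 7.12 on dehydrated and 51.3 ± 10.9 on control female arrays (limma, adjusted p = 0.0358), a call lost without dehydrated array 1 or 4 or control array 1, 3 or 4 (adjusted p up to 0.103). The other was Slc17a6, a vesicular glutamate transporter, at 931.2 ± 76.2 on dehydrated and 617.8 ± 17.6 on control male arrays, with a log2 fold change of 0.58 ± 0.06 (limma, adjusted p = 1.5e-05).

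Of 21 lysosomal genes tested, 1 rose and 0 fell in females, and 6 rose (Ctsd, Ctsl, Gla, Neu1, Scarb2 and Cd63) and 2 fell (Psap and Tpp1) in males. The female count is near the 2.27% of all genes that rose, and the male counts stand beside 11.1% that rose and 9.98% that fell. Ctsl, the protease cathepsin L, rose in both sets, by 0.85 ± 0.13 in females (limma, adjusted p = 0.00701) and by 0.43 ± 0.07 in males (limma, adjusted p = 0.000604). Cd63, a membrane protein of late endosomes and lysosomes, rose by 0.41 ± 0.05 in males (limma, adjusted p = 7.74e-05). Scarb2, which carries glucocerebrosidase to lysosomes, rose by 0.63 ± 0.09 (limma, adjusted p = 0.000367) and Neu1, a lysosomal sialidase, by 0.62 ± 0.11 in males (limma, adjusted p = 0.00122), both from dim signals. Their male calls, and that of Ctsl in either set, held without any 1 array.

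A further list held the TFEB family, the Ragulator and the Rag GTPases, with Slc38a9, Flcn, Mtor and Rptor. Of its 14 genes tested, 0 passed in females, and 1 rose and 1 fell in males, near the shares over all genes. Rraga, which encodes the GTPase RagA, had 0.36 ± 0.11 in females (limma, adjusted p = 0.0954) and rose by 0.29 ± 0.06 in males (limma, adjusted p = 0.00316). Rragc, which encodes RagC, fell by 0.28 on the log2 scale with an SE of 0.07 in males (limma, adjusted p = 0.0158), a call ended by median centring (adjusted p = 0.0874), the single fit (adjusted p = 0.0686) and the actin covariate (adjusted p = 0.344).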

How the data were processed

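RNA of the rat supraoptic nucleus was measured on Affymetrix arrays. Per the labels, QIAzol and RNeasy extraction with MessageAmp II amplification was used for males, and Trizol extraction with the Affymetrix labelling protocol for females; per the submitters' processing notes, signals came from GCOS 1.2 (males) and MAS5 (females). The deposited values are intensity per probe set, not log transformed, with a 2% trimmed mean near 100 on every array; other settings are not given in the sources used here. Of 24 samples, 19 had values: 5 columns, those of the lactating rats, were empty and not analysed here. No 2 arrays held identical values. No counts exist, and the number of arrays limits the precision.

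Values were scaled per array to a trimmed mean of 500, and log2 was taken after 32 was added. The 57 Affymetrix controls and probe sets at or under the 30th percentile of mean log2 value were left out, leaving 21729 of 31099 in each fit. Dehydrated and control arrays were compared with limma 3.58.1 in R 4.3.3 (lmFit, eBayes with trend), within each set and, for the difference and the mean of the effects, in 1 fit of 18 arrays, with Benjamini-Hochberg adjustment over all probe sets kept and a threshold of 0.05. Fold changes are of log2(value + 32), with standard errors from the fit; ± after a log2 fold change is that SE, and printed signals are as deposited. The script was tested on simulated data. Figures were made in Python 3.11.15 (matplotlib 3.10.9).

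The platform annotation gave a single symbol for 20832 probe sets, several for 436 and none for 9831. A gene is represented by its probe set of highest mean over 18 arrays. The members and lists were chosen with earlier results of these data known. Named genes are the 10 members, Avp, Oxt, Xist and 5 genes of most similar profile. Of every other list, at most 4 genes past the threshold per set are named, by smallest p (or the one of smallest p). Others are marked. Alternatives were quantile normalization, median centring, offsets of 1 and 100, no filter or one at the 50th percentile, array weights, no trend, probe sets averaged per gene, a single fit of all 4 groups, the fifth dehydrated female array added, and each array left out; leaving out the 2 female arrays of high actin ratio, and the log2 actin ratio as a covariate in males, were added after seeing the data. Promoter windows are from RefSeq, and no genome was used.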

Additional observations from a re-analysis of the deposited data

Results flagged for a closer look

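Among the 40 groups of arrays tested (10 genes in 4 groups), 3 held an array whose gap to its nearest neighbour, as a share of the group's range, passed Dixon's 95% critical value; chance alone flags about 5% of such groups. The second dehydrated female array read 2653.1 for Atp6v0c, against 1793 to 1916 on the other dehydrated female arrays (gap 0.857 of the range, critical value 0.829). The third dehydrated male array read 1198.0 for Atp6v1b2, against 1290.5 to 1326 on the other dehydrated male arrays (gap 0.722, critical value 0.710). The fifth control male array read 1109.8 for Atp6v1b2, against 952.6 to 961.7 on the other control male arrays (gap 0.942, critical value 0.710). Without the second dehydrated female array the female log2 fold change of Atp6v0c was 0.19, and without the third dehydrated or the fifth control male array that of Atp6v1b2 in males was 0.40 and 0.42, with adjusted p of 0.000339 and 4.68e-05 (limma).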

How the results depend on the processing

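No paired analysis was possible because the groups compared share no replicate number that the labels tie to a common animal, batch or day. In females 643 probe sets passed (384 higher, 259 lower), 1709 with array weights, 290 without the trend, 2322 in a single fit of all 4 groups, 1 with the fifth dehydrated array added, and 210 to 886 when each array was left out; members that rose numbered 1 in the single fit and 0 to 1 when arrays were left out. In males 3846 passed (1808 higher, 2038 lower), 2270 in the single fit, 1540 with the log2 actin ratio as a covariate and 2839 to 4149 with arrays left out; members that rose numbered 4 with the covariate and with probe sets averaged per gene, 6 under quantile normalization, without the trend and in the single fit, and 7 whichever array was left out. The difference passed for 7 probe sets, for 20 under quantile normalization, 12 with median centring, 11 with an offset of 100, 2 with no filter, 114 with array weights, 0 with the fifth dehydrated array (limma), 29 without the 2 arrays of high actin ratio and 1 to 55 with arrays left out. The mean effect passed for 4908, for 1469 with the fifth dehydrated array, and 4272 to 5219 with arrays left out; its members that rose numbered 3 under quantile normalization, 0 with the fifth dehydrated array and 7 to 8 with arrays left out. Median centring moved the share of calls that were higher to 75.3% in females, against 59.7%, to 71.3% in males, against 47.0%, and to 63.0% in the mean effect, against 42.8%. Values that changed sign had not passed. Under quantile normalization they were in females Atp6v1b2 (−0.0145) and Atp6v1e1 (−0.042), in males Atp6v1e1 (−0.0004), and in the mean effect Atp6v1e1 (−0.02) and Atp6ap1 (−0.0803; −0.0128 with array weights). With the fifth dehydrated array they were in females Atp6v1a (−0.0656), Atp6v1b2 (−0.24), Atp6v1d (−0.0885), Atp6v1e1 (−0.19) and Rraga (−0.10), and in the mean effect Atp6v1d (−0.0036) and Atp6v1e1 (−0.0478). Without the 2 arrays of high actin ratio Atp6v1e1 was −0.0132 in females. With arrays left out, in females Atp6v1e1 ran from −0.0021 to 0.16 and Atp6ap1 from −0.18 to 0.0057, and in the mean effect Atp6ap1 from −0.0286 to 0.0665. The causes were not tested. The number of arrays limits what small effects can be seen: over all probe sets the SE had a median of 0.17 in females and 0.12 in males.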

Other observations

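The mean log2 profile of the 10 V-ATPase genes, centred within each set, was compared with the profiles of 7366 genes of above-median level over the 18 arrays. The genes most like it were Pacc1, a proton-activated chloride channel (Pearson r = 0.97), Gars1, a transfer RNA synthetase (r = 0.97), Calb2, the calcium binder calretinin (r = 0.97), Ldha, a lactate dehydrogenase (r = 0.96), and Rasd1, a small GTPase (r = 0.96), beside a median r of −0.06. All these profiles share the arrays and the split into dehydrated and control, so r is a description. Atp6ap1l ranked 80 and Atp6v1h, the most similar other subunit, ranked 309.

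The profile itself was above 0 on all dehydrated and below 0 on all control arrays, at 0.07 to 0.19 in dehydrated and −0.17 to −0.06 in control females, and at 0.07 to 0.17 in dehydrated and −0.18 to −0.07 in control males. It is made of the values given above and adds no test.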
